A study of Mus musculus with 18 samples.

Results

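Hepatocytes that had received an siRNA against transthyretin (Ttr) together with the TTR REVERSIR were compared with hepatocytes given PBS, to measure how near the cells with both oligonucleotides lay to untreated ones. The members were chosen by the sample titles: SIRNA-TTR-RVR replicates 1 to 3 and PBS control replicates 1 to 3, which are 6 of the 18 libraries of the series. The cells of all libraries were commercial primary liver cells that had been frozen and thawed for plating: hepatocytes from male mice of the outbred CD-1 stock. The PBS group received the vehicle, and the SIRNA-TTR-RVR group received the siRNA and the REVERSIR directed at it. The other 12 libraries, also 3 per group, were SIRNA (the siRNA alone), SCRA-RVR and TTR-RVR (the scrambled or the TTR REVERSIR alone) and SIRNA-SCRA-RVR (the siRNA with the scrambled REVERSIR). The labels give no dose, time, age or number of donor animals. They do not say either that the libraries within a group stem from different cultures or donors, so p-values measure the spread between these libraries, which may be technical.

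Transthyretin is secreted by the liver and carries thyroxine and, bound to retinol-binding protein, retinol in plasma. An siRNA conjugated to N-acetylgalactosamine (GalNAc) enters hepatocytes through the asialoglycoprotein receptor, and its guide strand is loaded into Argonaute, which then cuts the matching mRNA. The REVERSIR class comprises short synthetic strands that pair with that guide and are meant to relieve silencing. In hepatocytes the most abundant mRNAs encode plasma proteins such as albumin, while much of the rest serves the urea cycle, xenobiotic metabolism and lipid and glucose metabolism.

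Totals ran from 3871163 to 6753263 counts in the PBS libraries and from 6130900 to 8955917 in the SIRNA-TTR-RVR libraries, in a series that spanned 1755819 to 10145265. PBS replicates 1 and 2 stood apart from the others. The 2 mitochondrial ribosomal RNAs took 24.34% and 24.08% of their counts, against 5.447% in PBS replicate 3, 2.053% to 6.687% in SIRNA-TTR-RVR, and 1.69% to 9.56% over all 16 libraries other than PBS replicates 1 and 2. Lars2, a mitochondrial leucyl-tRNA synthetase gene, was read at 63118 and 62912 CPM (counts scaled to library depth, after TMM correction) in those libraries and at 833 in PBS replicate 3, against 2660.1 to 4053 in SIRNA-TTR-RVR. Whether the reads counted for Lars2 came from its mRNA was not tested, so its level is uncertain. Log2 fold changes of the genes called against PBS are followed by their values without PBS replicates 1 and 2.

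Hepatocyte markers were high in all 6 libraries. The summed level of 8 of them (Alb, Apoa1, Ttr, Hnf4a, Cps1, Asgr1, Krt8 and Krt18) was 51090 to 58440 CPM in PBS and 50730 to 54510 CPM in SIRNA-TTR-RVR. Markers of Kupffer cells and macrophages summed to 393 to 454 CPM in PBS and 398 to 447 CPM in SIRNA-TTR-RVR, most of it from Cd68 and Cd14, while the defining gene Emr1 did not pass 0.676 CPM. Endothelial markers summed to 107 to 112 and 95.9 to 102 CPM, stellate cell markers to 160.4 to 166 and 141 to 150.4 CPM, and cholangiocyte markers to 128 to 142 and 142.2 to 168 CPM, in PBS and SIRNA-TTR-RVR. Gfap and Cftr were at 0 in all 6 libraries, and 11 of 12 lymphocyte markers were at 0 in both groups. The endothelial and stellate sums were lower in every SIRNA-TTR-RVR library than in any PBS library, by small amounts; their part in the results was not tested. In bulk RNA, fewer cells of a type and less RNA per cell cannot be told apart.

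Ttr mRNA in the cells with siRNA and TTR REVERSIR lay at the PBS level within the spread of the libraries. It measured 1034, 1080.3 and 1220.0 CPM in PBS replicates 1 to 3 (gene ENSMUSG00000061808, chromosome 18, 20823751 to 20832825 on the plus strand of NCBIM37) and 1182, 1001 and 978 CPM in SIRNA-TTR-RVR replicates 1 to 3. The highest SIRNA-TTR-RVR library lay inside the PBS range and the other two lay just below it, so the groups overlapped. The means were 1111 ± 96.8 CPM and 1054 ± 112 CPM (SD, n = 3), which puts SIRNA-TTR-RVR at 94.8% ± 10.1 of the PBS mean. The fitted log2 fold change was −0.08 ± 0.09 (SE), with a 95% interval of −0.26 to 0.11 and an adjusted p of 0.706, and the bounds of the interval stand at 83.5% and 107.7% of PBS. An exact two-sided permutation test of the CPM gave p = 0.5, where 0.1 is the smallest that 3 against 3 libraries allow. Without PBS replicates 1 and 2 the log2 fold change was −0.20 ± 0.12. With mitochondrial ribosomal share as covariate it was −0.28 ± 0.10 (adjusted p = 0.863). Both estimates lay further below PBS than that of the main fit. An adjusted p covers all genes tested and is not the uncertainty of Ttr alone, so a level somewhat below PBS is not excluded.

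The libraries with silenced Ttr lay far from this range. SIRNA libraries held 220.5, 254 and 253 CPM and SIRNA-SCRA-RVR libraries 227, 225 and 226 CPM. Every SIRNA-TTR-RVR library was above all 6 of these, and the log2 difference was 2.12 ± 0.09 from SIRNA (adjusted p = 1.17e-13) and 2.22 ± 0.09 from SIRNA-SCRA-RVR (adjusted p = 4.05e-14).

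**Figure D1:**
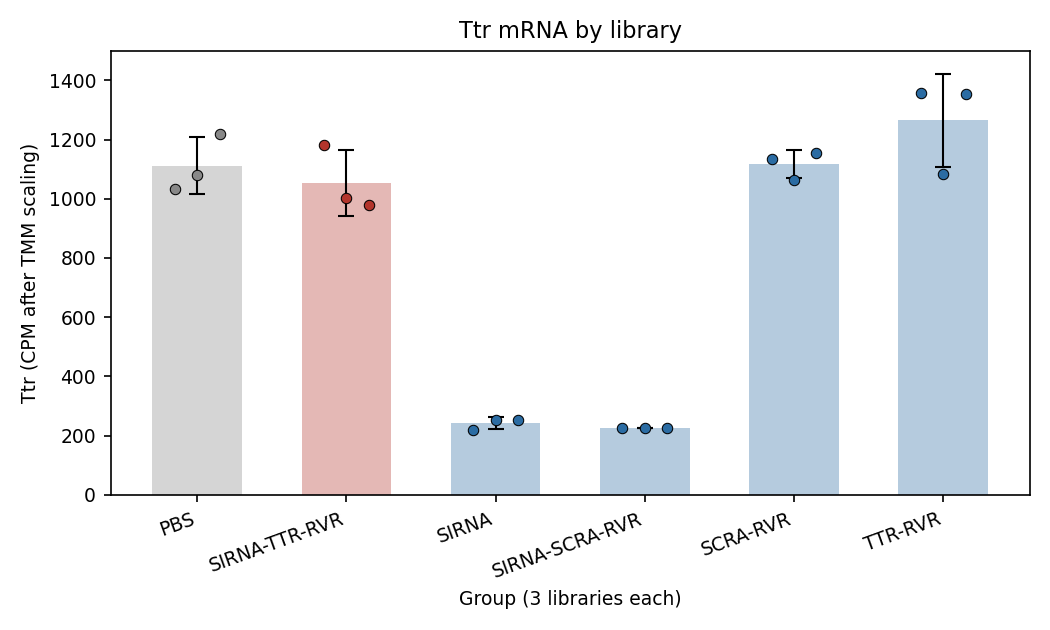
Ttr in CPM after TMM scaling (vertical axis) in each of the 18 libraries, by group; bars are means, error bars SD (n = 3) and points single libraries. The SIRNA-TTR-RVR libraries, at 978 to 1182 CPM, overlap the PBS libraries at 1034 to 1220.0 CPM and sit above the SIRNA and SIRNA-SCRA-RVR libraries.

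Most of the genes tested lay near PBS when read by interval rather than by p. Of 11153 genes tested, 10100 (90.6%) had a 95% interval of the fold change that stayed within 2-fold of PBS in both directions, and 6860 (61.5%) stayed within 0.5 on the log2 scale. Precision followed abundance. Among the 4808 genes with a mean log2 CPM of 5 or more, 99.4% had an interval within 2-fold and 92% within 0.5, whereas 63.9% of the 2673 genes with a mean log2 CPM under 3 had an interval within 2-fold. For the remaining 1053 genes (9.44%) nearness within 2-fold was not shown; 10 of them, Neat1 among them, had an interval wholly beyond 2-fold. With no filter on low counts, 12087 of 20065 genes (60.2%) had an interval within 2-fold. By estimate alone, 80 genes (0.717%) differed by 1 or more on the log2 scale.

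Several abundant liver mRNAs belonged to the tightly bounded genes. Others, described below, did not stay within 0.5 on the log2 scale. Trf had an interval of −0.86 to −0.39, Serpina1c one of −0.83 to −0.28 and B2m one of −0.74 to −0.29. Lars2, read at a high but uncertain level in PBS replicates 1 and 2, is described above. Albumin (Alb) measured 49585, 45676 and 40159 CPM in PBS and 43860, 40625 and 40428 CPM in SIRNA-TTR-RVR. The groups overlapped, and the log2 fold change was −0.12 ± 0.07 with an interval of −0.26 to 0.03. Hemopexin (Hpx), which binds free heme, had 0.05 ± 0.07 (interval −0.11 to 0.20), and ceruloplasmin (Cp), a copper-carrying ferroxidase, −0.07 ± 0.07 (−0.21 to 0.07). Gc, the vitamin D carrier, had −0.13 ± 0.07 (−0.27 to 0.02), and the selenium carrier Sepp1 had −0.14 ± 0.08 (−0.31 to 0.02). The elongation factor Eef1a1 was further down at −0.24 ± 0.09 and did not pass the test (adjusted p = 0.139); without PBS replicates 1 and 2 it was at 0.01.

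The distance between libraries depended on which PBS library was used. Over the 4808 abundant genes, the median absolute log2 difference between PBS replicates 1 and 2 was 0.104, and between either of them and PBS replicate 3 it was 0.148 and 0.143. PBS replicate 3 differed from SIRNA-TTR-RVR replicates 1 to 3 by 0.115, 0.0766 and 0.0821, which is less than its distance from the other PBS libraries. PBS replicates 1 and 2 differed from the SIRNA-TTR-RVR libraries by 0.134 to 0.179. Within SIRNA-TTR-RVR the distances were 0.107, 0.106 and 0.0682. No pair of libraries agreed within sampling noise, with a smallest chi-square per degree of freedom of 3.94, so none was treated as a duplicate.

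**Figure D2:**
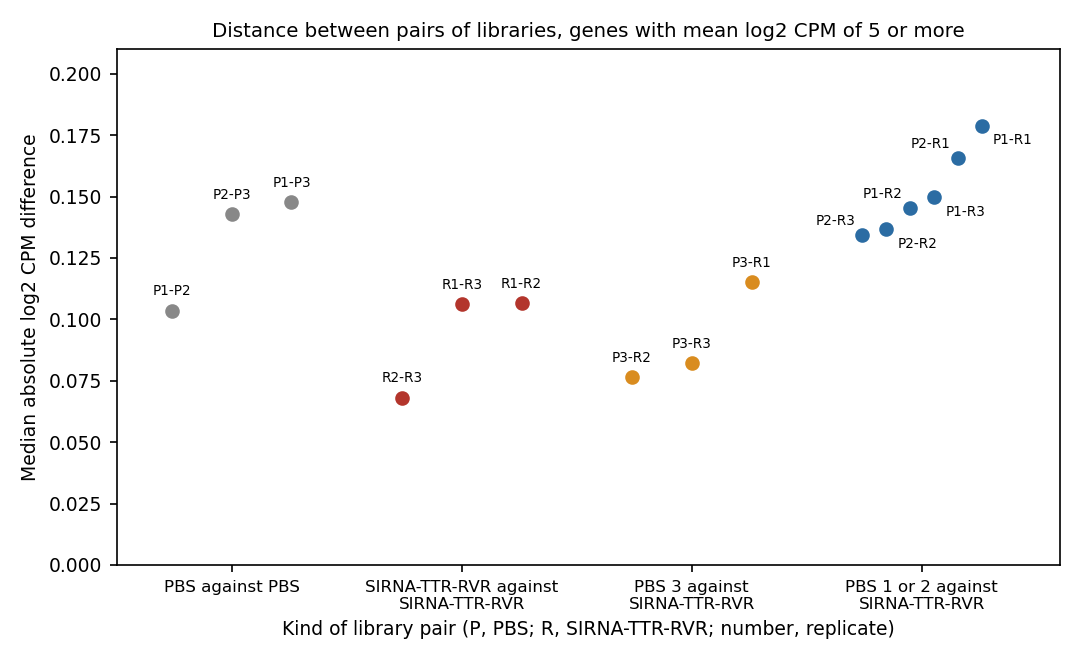
Median absolute difference in log2 CPM (vertical axis) over 4808 genes with a mean log2 CPM of 5 or more, for each pair of the 6 libraries, by kind of pair (horizontal axis); each point is 1 pair. PBS replicate 3 lies 0.0766 to 0.115 from the SIRNA-TTR-RVR libraries, and PBS replicates 1 and 2 lie 0.134 to 0.179 from them.

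At an adjusted p under 0.05, 88 genes (0.789% of those tested) differed between SIRNA-TTR-RVR and PBS. Of these, 39 (0.35%) were higher and 49 (0.439%) were lower, and 13 (0.117%) differed by 2-fold or more. Their absolute log2 fold changes had a median of 0.53 and ran from 0.27 to 2.81, where the median over all genes was 0.13. The pseudogene Gm12563, named after its values were seen, had the value farthest from 0 (−2.81); it measured 16.1, 25.5 and 1.01 CPM in PBS and 1.80 to 2.29 CPM in SIRNA-TTR-RVR, so PBS replicate 3 lay below the treated libraries, and without PBS replicates 1 and 2 its log2 fold change was 1.02. The libraries of the 2 groups did not overlap for 73 of the 88, against 1789 (16%) of all genes tested, of which 869 (7.79%) were higher and 920 (8.25%) lower. At an unadjusted p under 0.05 there were 1974 genes (17.7%). With PBS replicate 3 as the only control, no gene passed the test (edgeR, 470 genes at an unadjusted p under 0.05), which assumes that the lone library varies like the other groups. In that fit 85 of the 88 kept their direction, at a median absolute log2 fold change of 0.25, and 46 kept more than 50% of their size.

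The genes that fell included carriers and enzymes of the hepatocyte. Transferrin (Trf), the plasma carrier of iron, measured 1436, 1233 and 830.2 CPM in PBS and 776, 766 and 728 CPM in SIRNA-TTR-RVR. PBS replicate 3 lay close above the treated libraries and the other PBS libraries far above, without overlap, and the log2 fold change was −0.63 ± 0.11 (adjusted p = 0.0217; −0.13 without PBS replicates 1 and 2). B2m, the light chain of MHC class I molecules, measured 2329, 2142 and 1415 CPM in PBS and 1423, 1332 and 1364 CPM in SIRNA-TTR-RVR. Here the groups overlapped, since PBS replicate 3 fell among the treated libraries, and the log2 fold change of −0.52 ± 0.11 (adjusted p = 0.0283) became −0.04 without PBS replicates 1 and 2.

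Serpina1c, an alpha-1-antitrypsin gene, behaved in the same way. It measured 1595 and 1576 CPM in PBS replicates 1 and 2, 877 in PBS replicate 3 and 875 to 978 in SIRNA-TTR-RVR. Its log2 fold change of −0.55 ± 0.13 (adjusted p = 0.0494) turned to 0.08 without PBS replicates 1 and 2. It belongs to a family of near-identical genes between which reads can be split, so its level is uncertain.

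Other genes that fell kept a distance from all 3 PBS libraries. Patl1, a scaffold of mRNA decapping, measured 53.6, 49.6 and 39.1 CPM in PBS and 28.7, 31.6 and 33.2 CPM in SIRNA-TTR-RVR. The groups did not overlap, at a log2 fold change of −0.62 ± 0.13 (adjusted p = 0.0352; −0.32 without PBS replicates 1 and 2). Tab2, an adaptor of inflammatory signalling, measured 115, 117 and 98.3 CPM against 75.4, 81.4 and 85.7 CPM, with a log2 fold change of −0.45 ± 0.08 and of −0.28 without PBS replicates 1 and 2. Prkx, a cyclic AMP-dependent kinase subunit, measured 102, 105 and 92.8 CPM against 72.3, 77.1 and 76.3 CPM (−0.42 ± 0.07, and −0.30). Ahr, the aryl hydrocarbon receptor that senses xenobiotics, measured 149, 121 and 118 CPM against 96.3, 102 and 104 CPM (−0.37 ± 0.08, and −0.23).

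Further members of the 12 that fell most without overlap were Fkbp1a (−0.97 ± 0.22), the target of the drug tacrolimus, and Pdia3 (−0.77 ± 0.17), a disulfide isomerase of the endoplasmic reticulum. Fkbp1a measured 155, 152 and 77.9 CPM in PBS and 55.3, 71.7 and 71.7 CPM in SIRNA-TTR-RVR, so that PBS replicate 3 stood beside the treated libraries. Without PBS replicates 1 and 2 Fkbp1a was at −0.24 and Pdia3 at −0.30, and with mitochondrial ribosomal share as covariate Fkbp1a was at 0.02. Brwd3 (−0.65 ± 0.15), Max (−0.62 ± 0.12), the partner of Myc, Tmem188 (−0.59 ± 0.13) and Pigt (−0.53 ± 0.12), a subunit of the enzyme that attaches GPI anchors, fell as well. They were at −0.34, −0.25, −0.39 and −0.22 in the same order without PBS replicates 1 and 2. Beside them stood a long intergenic RNA, Gm16869 (−1.85 ± 0.35), and the pseudogenes Gm13436 (−1.48 ± 0.27), Mup-ps22 (−1.0 ± 0.19) and Gm13456 (−0.87 ± 0.15). Without PBS replicates 1 and 2 the pseudogenes were at −0.12, −0.62 and −0.24. Gm16869 measured 9.92, 8.56 and 10.6 CPM in PBS and 2.29, 3.91 and 2.06 CPM in SIRNA-TTR-RVR, and all 3 PBS libraries stood well above the treated ones; its log2 fold change was −1.98 without PBS replicates 1 and 2. Reads of pseudogenes can come from their parent genes, so their levels are uncertain.

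Among the genes that rose, the long noncoding RNA Neat1, the scaffold of nuclear paraspeckles, had the highest level. It measured 266, 689 and 261 CPM in PBS and 1138, 1439 and 1995 CPM in SIRNA-TTR-RVR. All treated libraries were above all PBS libraries, and the log2 fold change was 1.91 ± 0.38 (adjusted p = 0.024). PBS replicates 1 and 3 were alike here and replicate 2 was the high one, and the log2 fold change was 2.55 without PBS replicates 1 and 2. Neat1 was also the gene that passed the test in the fit that took the mitochondrial ribosomal share as covariate and in the fit without PBS replicate 2, where no other gene did. In the fit of only the groups compared, Gm16869 passed and Neat1 did not.

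Atp5g3, Ndufa9, Acaa1a and Gpt, which encode metabolic enzymes or subunits of them, rose by smaller amounts. Atp5g3, a subunit of the ATP synthase ring, measured 90.5, 98.2 and 109.9 CPM in PBS and 141, 130.4 and 127 CPM in SIRNA-TTR-RVR, without overlap (0.42 ± 0.07, adjusted p = 0.0217; 0.28 without PBS replicates 1 and 2). Ndufa9, a subunit of complex I, measured 45.2, 47.8 and 61.0 CPM against 84.6, 74.8 and 65.9 CPM (0.56 ± 0.11, and 0.31). Acaa1a, a peroxisomal thiolase, measured 17.3, 16.5 and 28.7 CPM against 38.9, 31.4 and 31.1 CPM (0.73 ± 0.15, and 0.25). Gpt, the alanine aminotransferase, measured 39.7, 48.7 and 52.2 CPM against 75.4, 60.4 and 63.7 CPM (0.52 ± 0.10, and 0.36). In each of these 4 genes PBS replicate 3 was the PBS library nearest to the treated ones.

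Rbm3, a cold-inducible RNA-binding protein gene, rose by 0.50 ± 0.09 (98, 91.0 and 128 CPM in PBS, 159, 143 and 143 CPM in SIRNA-TTR-RVR), and was at 0.22 without PBS replicates 1 and 2. Psmb8, a subunit of the immunoproteasome, rose by 0.38 ± 0.09 (52.2, 55.9 and 72.1 CPM against 80.6, 74.5 and 78.2 CPM), and was at 0.12 without PBS replicates 1 and 2. Of genes at low level, Tsfm, which serves protein synthesis in mitochondria, was up by 0.89 ± 0.20, the complex I subunit gene Ndufb2 by 1.02 ± 0.22, the mitochondrial carrier gene Slc25a38 by 1.04 ± 0.24, Dnalc1 by 1.03 ± 0.25, the splicing factor Srsf2 by 0.75 ± 0.18 and Ccdc22 by 2.16 ± 0.45. Without PBS replicates 1 and 2 these were at 0.50, 0.56, 1.73, 0.96, 0.73 and 1.83. Ccdc22 measured 0.397 to 0.756 CPM in PBS and 1.88 to 3.73 CPM in SIRNA-TTR-RVR, which rests on few counts. The 12 that rose most without overlap also held Rpl38-ps2, a pseudogene (1.02 ± 0.24, and 0.67 without PBS replicates 1 and 2), the processed transcript RP24-323I5.2 (0.96 ± 0.22, and 0.30) and 3 small nucleolar RNAs.

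**Figure D3:**
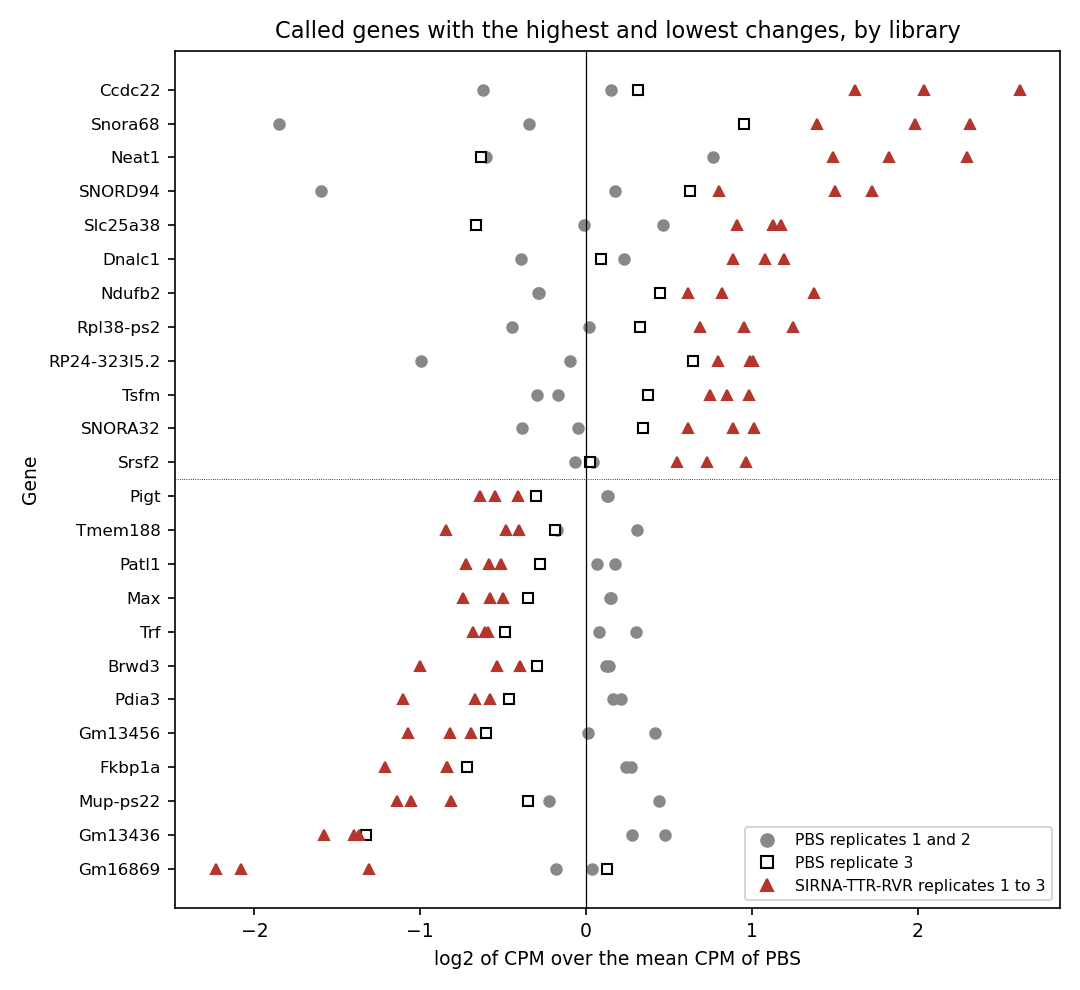
CPM over the PBS mean on a log2 scale (horizontal axis) for the 12 genes that rose most and the 12 that fell most past the test without overlap of libraries. Grey circles are PBS replicates 1 and 2, open squares PBS replicate 3 and red triangles the 3 SIRNA-TTR-RVR libraries; for many genes, such as Gm13436 and Trf, the square sits beside the triangles, while for Gm16869 and Neat1 it sits with or beyond the circles.

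PBS replicate 3 lay on the treated side of both other PBS libraries in 78 of the 88 genes, and was nearer to the SIRNA-TTR-RVR mean than to them in 55. Over all 11153 genes tested, PBS replicate 3 lay outside the other PBS libraries, on either side, in 8110. The genes that fell summed to 12502, 11598 and 8381 CPM in PBS replicates 1 to 3 and to 7680, 7757 and 7731 CPM in SIRNA-TTR-RVR. The genes that rose summed to 2347, 2814 and 3010 CPM in PBS and to 4733, 4491 and 5091 CPM in SIRNA-TTR-RVR. The counts for the 88 and these sums describe genes chosen by the same comparison and are given without a test.

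Small nucleolar RNAs guide the chemical modification of other RNAs, mainly ribosomal RNA: those with a box C/D direct ribose methylation and those with a box H/ACA direct pseudouridylation. Most are cut from the introns of host genes. Of the 4 that passed the test, 3 are shown because they carry this class, 5′ to 3′, on NCBIM37. The letters of the defining boxes are in capitals. For H/ACA these are an ACA within the last 10 bases. For C/D these are the first TGATGA and the last CTGA. SNORD94 lies at chr6:71832551-71832687 (minus strand, in Ptcd3), SNORA32 at chr9:15120933-15121032 (plus strand, in Taf1d) and SNORA12 at chr19:44188469-44188614 (minus strand, in Cwf19l1). Each lies inside its host gene on the same strand, outside the host's annotated exons. SNORA12 has no ACA within its last 10 annotated bases and has no capitals.
SNORD94: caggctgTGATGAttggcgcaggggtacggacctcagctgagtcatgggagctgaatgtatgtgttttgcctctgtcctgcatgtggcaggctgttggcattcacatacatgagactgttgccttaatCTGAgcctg
SNORA32: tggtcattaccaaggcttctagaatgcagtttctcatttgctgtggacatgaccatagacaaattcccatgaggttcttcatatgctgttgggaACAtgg
SNORA12: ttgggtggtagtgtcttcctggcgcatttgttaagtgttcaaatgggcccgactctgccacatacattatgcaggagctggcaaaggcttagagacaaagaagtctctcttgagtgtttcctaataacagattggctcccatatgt

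A TGATGA with a CTGA at any place after it was found in all 8 tested genes whose symbols begin with Snord. Of the annotated ones, 273 of 346 (78.9%) held it. The ACA was found in 26 of 27 (96.3%) tested genes whose symbols begin with Snora, in any case, and in 664 of 1031 (64.4%) annotated ones; the annotated strand was read, and these matches are descriptions only.

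Snora68 measured 1.59, 4.51 and 11.1 CPM in PBS and 28.5, 15 and 22.6 CPM in SIRNA-TTR-RVR. All treated libraries were higher, and PBS replicate 3 was the highest of its group; the log2 fold change was 2.05 ± 0.36 (adjusted p = 0.0217) and 1.03 without PBS replicates 1 and 2. SNORD94 measured 1.19, 4.06 and 5.55 CPM against 11.9, 6.26 and 10.2 CPM (1.49 ± 0.36, and 0.81). SNORA32 measured 5.16, 6.53 and 8.57 CPM against 13.6, 10.3 and 12.5 CPM (0.88 ± 0.20, and 0.53). SNORA12 measured 19.8, 30.4 and 28.7 CPM against 49.3, 38.3 and 39.9 CPM (0.71 ± 0.14, and 0.58). In all 4 the groups did not overlap.

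These 4 were among 49 small nucleolar and small Cajal body RNAs tested, of which 4 rose and none fell, against 0.35% higher and 0.439% lower over all genes. This class was picked after its values had been seen and gets no test. Its log2 fold changes had a median of 0.71 and were above 0 in 44 of 49, where 49.3% of all genes tested were above 0; without PBS replicates 1 and 2 the median was 0.33 and 35 were above 0. The class summed to 331, 520.0 and 674 CPM in PBS and to 762, 685 and 859 CPM in SIRNA-TTR-RVR, which did not overlap, and to 318 to 837 CPM in the other 12 libraries, which overlapped both. The counting strand is not given, and 42 of the 49 lie inside another gene on the same strand, so reads of the host gene cannot be told apart from theirs.

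Of 81 cytosolic ribosomal protein genes and paralogs tested, taken by symbol, 5 rose (Rpl39, Rpl35a, Rpl22l1, Rps15a and Rps21, by 0.33 to 0.71) and none fell, against 0.35% higher and 0.439% lower over all genes. Without PBS replicates 1 and 2 these 5 were at 0.30, 0.22, 0.49, 0.10 and 0.17, and the median of the class went from 0.11 to 0.04. Rpl41, which lacks a type in the annotation and so stood outside the class, fell by 0.49 on the log2 scale and was at −0.05 without PBS replicates 1 and 2. Of 21 genes and pseudogenes of the major urinary proteins, pheromone carriers made by male mouse liver, 2 fell (Mup9, at −0.64 and at −0.03 without PBS replicates 1 and 2, and Mup-ps22), against 0.439% of all genes. The class had a median of −0.17, and of −0.02 without PBS replicates 1 and 2. Both classes were looked at after their values were seen, and reads of such near-identical copies can be split between them.

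The SIRNA-TTR-RVR group was also set against the groups that had received an oligonucleotide, which uses no PBS library. Against the mean of the other 4 treated groups Ttr was the only gene that passed the test (1 of 11153, 0.00897%), at a log2 difference of 1.00 ± 0.07, while 535 genes (4.80%) had an unadjusted p under 0.05. Ttr was likewise the only gene past the test against SIRNA (0.00897%, with 667, or 5.98%, at an unadjusted p under 0.05) and against SIRNA-SCRA-RVR (0.00897%, with 242, or 2.17%). DESeq2 in place of edgeR called 6, 14 and 1 genes in the same order. The median absolute log2 difference over all genes was 0.0671 from the other 4 treated groups, 0.0888 from SIRNA, 0.067 from SIRNA-SCRA-RVR and 0.13 from PBS. These medians come from different numbers of libraries and from different sets of them, and are given side by side.

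None of the 88 genes called against PBS differed from the other 4 treated groups past the test, and 13 of them had an unadjusted p under 0.05. The smallest adjusted p was 0.24, for SNORA12. The median absolute log2 difference of the 88 from the other treated groups was 0.0878, and the 95% interval lay within 0.5 on the log2 scale for 73 of them and within 2-fold for 84. Over all 11153 genes tested the median was 0.0671, and 9010 and 10885 genes had such intervals. Trf differed from the other treated groups by −0.12 ± 0.09, B2m by 0.04 ± 0.08, Acaa1a by 0.04 ± 0.10 and Gpt by 0.01 ± 0.07. Neat1 differed by 0.92 ± 0.27 (adjusted p = 0.78), Snora68 by 0.65 ± 0.22 (adjusted p = 0.97), SNORA12 by 0.52 ± 0.10 and Srsf2 by 0.49 ± 0.12 (adjusted p = 0.67). Over the small nucleolar RNA class 47 of 49 were above 0 in this comparison, at a median of 0.52, against 50.6% of all genes. In the higher direction 26 had an unadjusted p under 0.05, and none passed the adjusted threshold. The mean of 4 groups hides differences between them. The class median was 0.24 against SIRNA and 0.70 against SIRNA-SCRA-RVR, and Snora68 differed by 0.24 from SIRNA and by 1.14 from SIRNA-SCRA-RVR.

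The 5 treated groups share the 3 PBS libraries as controls, so their differences from PBS are not independent and are listed as each group's own values. Trf changed from PBS by −0.63 in SIRNA-TTR-RVR and was at −0.56 in SIRNA, −0.39 in SCRA-RVR, −0.49 in TTR-RVR and −0.56 in SIRNA-SCRA-RVR. B2m was at −0.52 in SIRNA-TTR-RVR, −0.58 in SIRNA, −0.55 in SCRA-RVR, −0.52 in TTR-RVR and −0.56 in SIRNA-SCRA-RVR. Neat1 was at 1.91 in SIRNA-TTR-RVR, 0.98 in SIRNA, 1.3 in SCRA-RVR, 0.25 in TTR-RVR and 1.43 in SIRNA-SCRA-RVR. It passed the test in SIRNA-TTR-RVR (adjusted p = 0.024). The adjusted p of Neat1 was 0.0619 in SIRNA-SCRA-RVR, 0.105 in SCRA-RVR, 0.137 in SIRNA and 0.797 in TTR-RVR. SIRNA-SCRA-RVR replicate 1 (1753 CPM), SCRA-RVR replicate 2 (1269 CPM) and SIRNA replicate 3 (1264.5 CPM) lay above SIRNA-TTR-RVR replicate 1 (1138 CPM). The other libraries of these groups and of TTR-RVR lay below it. Snora68 was at 2.05 in SIRNA-TTR-RVR, 1.82 in SIRNA, 0.80 in SCRA-RVR, 2.10 in TTR-RVR and 0.92 in SIRNA-SCRA-RVR. It passed the test in SIRNA-TTR-RVR, SIRNA and TTR-RVR. Ttr was at −0.08 in SIRNA-TTR-RVR, −2.19 in SIRNA, 0.01 in SCRA-RVR, 0.19 in TTR-RVR and −2.30 in SIRNA-SCRA-RVR.

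**Figure D4:**
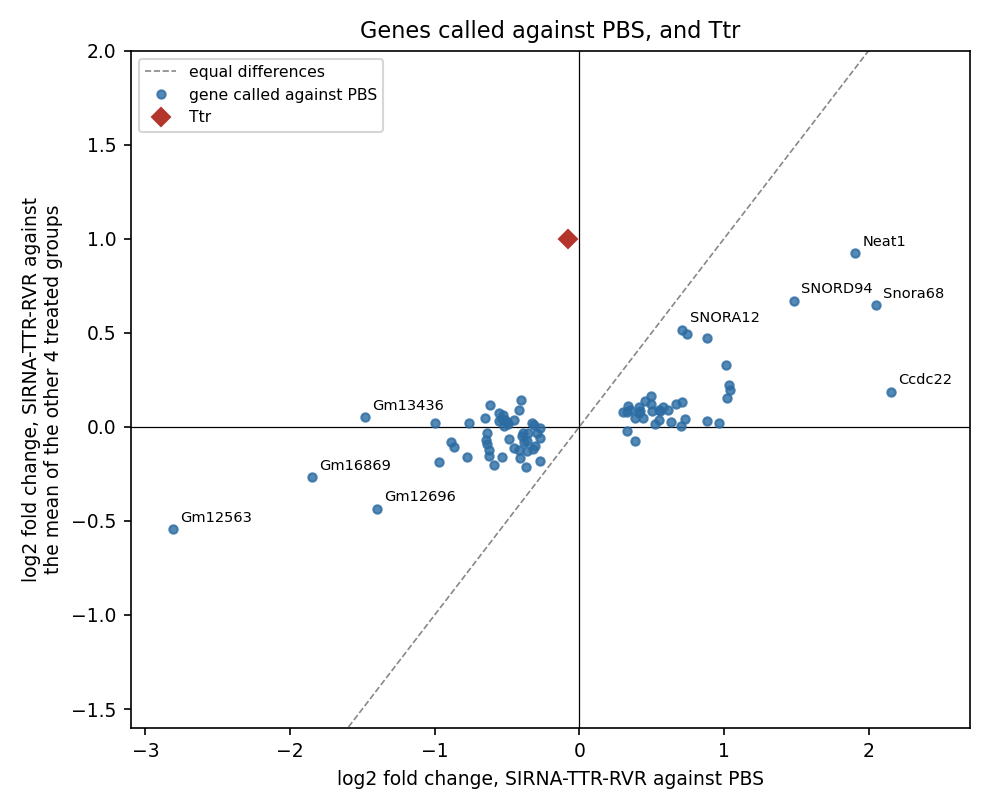
Log2 fold change of SIRNA-TTR-RVR against PBS (horizontal axis) and against the mean of the other 4 treated groups (vertical axis) for the 88 genes called against PBS (blue) and for Ttr (red). Both axes share the SIRNA-TTR-RVR libraries; most blue points lie near 0 on the vertical axis, with Neat1, SNORD94, Snora68 and SNORA12 above 0.5, and Ttr lies at −0.08 and 1.00.

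Gene lists were read next, by pathway. The 27 lists were drawn up with earlier results of these data known, so their counts are descriptions. Of 448 list members tested, each counted once, 14 (3.13%) were among the called genes, in 9 lists, and 424 (94.6%) had an interval within 2-fold of PBS. The background was 0.789% called and 90.6% within 2-fold over all genes. In 17 lists no tested member passed.

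Among partners of Ttr in retinol and thyroid hormone handling, none of 19 members passed the test, where 0.789% of all genes did. Their median log2 fold change was −0.03. Rbp4, the retinol-binding protein that travels on transthyretin, measured 1216, 1151 and 763 CPM in PBS and 684, 829 and 856 CPM in SIRNA-TTR-RVR. PBS replicate 3 lay among the treated libraries, and the log2 fold change was −0.40 ± 0.13 (adjusted p = 0.101) and 0.06 without PBS replicates 1 and 2. Serpina7, the thyroxine-binding globulin, had −0.03 ± 0.11 in SIRNA-TTR-RVR against PBS. Its own values against PBS were 0.41 in SIRNA and 0.65 in SCRA-RVR, both past the test, and −0.02 in TTR-RVR and 0.03 in SIRNA-SCRA-RVR. The thyroid hormone transporter Slc16a10 had −0.08 ± 0.09, the receptor Thrb −0.03 ± 0.15, and the deiodinase Dio1 −0.28 ± 0.35. Thrsp, a thyroid-responsive gene of lipogenesis, had 0.30 ± 0.10 (adjusted p = 0.134).

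The route by which the conjugate enters and acts was read from lists for uptake and for RNA interference. None of 18 members of the asialoglycoprotein receptor and endolysosome list passed, where 0.789% of all genes did. At an unadjusted p under 0.05, 3 were higher and 5 lower, where 17.7% of all genes had such a p, and 17 had an interval within 0.5. Asgr1, the major receptor subunit, measured 117, 126 and 128 CPM in PBS and 171, 139 and 149 CPM in SIRNA-TTR-RVR. All treated libraries were above the PBS libraries, but the log2 fold change of 0.31 ± 0.09 did not pass (adjusted p = 0.08). Asgr2 had 0.19 ± 0.09, the clathrin heavy chain Cltc −0.26 ± 0.08 (adjusted p = 0.0909) and the late endosomal Rab7 −0.33 ± 0.11 (0.02 without PBS replicates 1 and 2). None of 14 members of the RNA interference machinery passed, 1 had an unadjusted p under 0.05, and 10 had an interval within 0.5. Argonaute 2 (Eif2c2), which cuts siRNA targets, had −0.20 ± 0.12 (interval −0.45 to 0.06), Eif2c1 −0.16 ± 0.11 and Dicer1 −0.09 ± 0.09, and the scaffold gene Tnrc6c had the smallest p of the list at −0.32 ± 0.12 (adjusted p = 0.147).

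Of 28 genes of RNA sensing and the interferon response, Psmb8 rose and B2m fell, as given above, and 26 did not pass. Of all genes tested, 0.789% passed. The list had a median of 0.12. The sensors Tlr3, Ddx58 and Ifih1 had 0.38 ± 0.14 (adjusted p = 0.177), −0.08 ± 0.07 and −0.10 ± 0.09. The induced genes Isg15, Ifit1 and Irf7 had 0.32 ± 0.10 (adjusted p = 0.0959), −0.01 ± 0.09 and 0.09 ± 0.07. For Ifit1 the interval ran from −0.19 to 0.17, though scaling by library totals alone turned it to 0.32.

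Among secreted plasma proteins, 3 of 26 fell (Trf, Fetub and Serpina1c) and none rose, at a median of −0.09. Over all genes tested, 0.439% fell and 0.35% rose. Fetub, a fetuin, changed by −0.38 ± 0.09 and was at −0.05 without PBS replicates 1 and 2. All 26 had an interval within 2-fold, as had 90.6% of all genes. Of 20 hepatocyte identity genes none passed, at a median of 0.03; the pregnane X receptor Nr1i2 and Cebpa had the smallest p, at 0.26 ± 0.12 and 0.27 ± 0.12.

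In metabolism, 1 of 23 urea cycle and amino acid genes rose (Gpt), 1 of 17 fatty acid oxidation genes rose (Acaa1a) and 1 of 24 xenobiotic genes fell (Ahr). The shares over all genes were 0.35% higher and 0.439% lower. None passed among 15 genes of glucose and glycogen, 12 of bile acids and 19 of cholesterol and fatty acid synthesis. In those 3 lists the genes with the smallest p were Gbe1, the glycogen branching enzyme (−0.17 ± 0.06, adjusted p = 0.146), Slco1b2, a bile acid and drug importer (−0.29 ± 0.09, adjusted p = 0.0994), and Insig1, a brake on sterol synthesis (0.25 ± 0.07, adjusted p = 0.0671). Of 28 nuclear subunits of the respiratory chain, Ndufa9 and Atp5k rose and Ndufa12 fell, at a median of 0.11. Ndufa12 measured 53.6, 55.2 and 35.3 CPM in PBS and 33.6, 38.0 and 31.4 CPM in SIRNA-TTR-RVR, and overlapped (−0.50 ± 0.12, and −0.04 without PBS replicates 1 and 2). Atp5k was at 0.61 ± 0.14, and at 0.30 without them. None of 7 mitochondrially encoded mRNAs passed; mt-Co1 had −0.26 ± 0.09 and mt-Nd6 0.76 ± 0.23, with 0.10 and 0.07 without PBS replicates 1 and 2.

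Of 17 genes of iron handling 2 fell, Trf and Ireb2, an iron-regulatory RNA-binding protein, where 0.439% of all genes fell. Ireb2 measured 162, 139 and 91.8 CPM in PBS and 73.3, 92.9 and 86.5 CPM in SIRNA-TTR-RVR. PBS replicate 3 lay inside the treated range (−0.65 ± 0.15, and −0.12 without PBS replicates 1 and 2). Patl1 was the gene that fell among 25 of mRNA decapping, deadenylation and decay, a list with a median of −0.14.

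Lists for stress and growth gave counts near the 0.789% of all genes. None passed among 20 p53 targets (median −0.03), 24 oxidative stress and heat shock genes (−0.04), 21 acute phase genes (0.01) and 13 cell cycle genes (−0.08), and 1 of 24 endoplasmic reticulum stress genes did (Pdia3). Heme oxygenase (Hmox1) measured 282, 303 and 219.6 CPM in PBS and 199, 218 and 205 CPM in SIRNA-TTR-RVR. The groups did not overlap by a narrow margin, and the log2 fold change of −0.37 ± 0.09 did not pass (adjusted p = 0.0536; −0.08 without PBS replicates 1 and 2). Orm2, an acute phase glycoprotein, had −0.32 ± 0.08 (adjusted p = 0.0588) and the amyloid precursor Saa1 0.33 ± 0.11 (adjusted p = 0.118). None of 20 cytoskeletal genes of plated hepatocytes passed, at a median of 0.13; S100a6 had 0.60 ± 0.17 (adjusted p = 0.0672) and Tmsb10 0.42 ± 0.11 (adjusted p = 0.0661), which became 0.03 and 0.05 without PBS replicates 1 and 2. Among markers of other cell types none of 6 Kupffer cell, 9 endothelial, 8 stellate cell and 5 cholangiocyte genes passed.

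**Figure D5:**
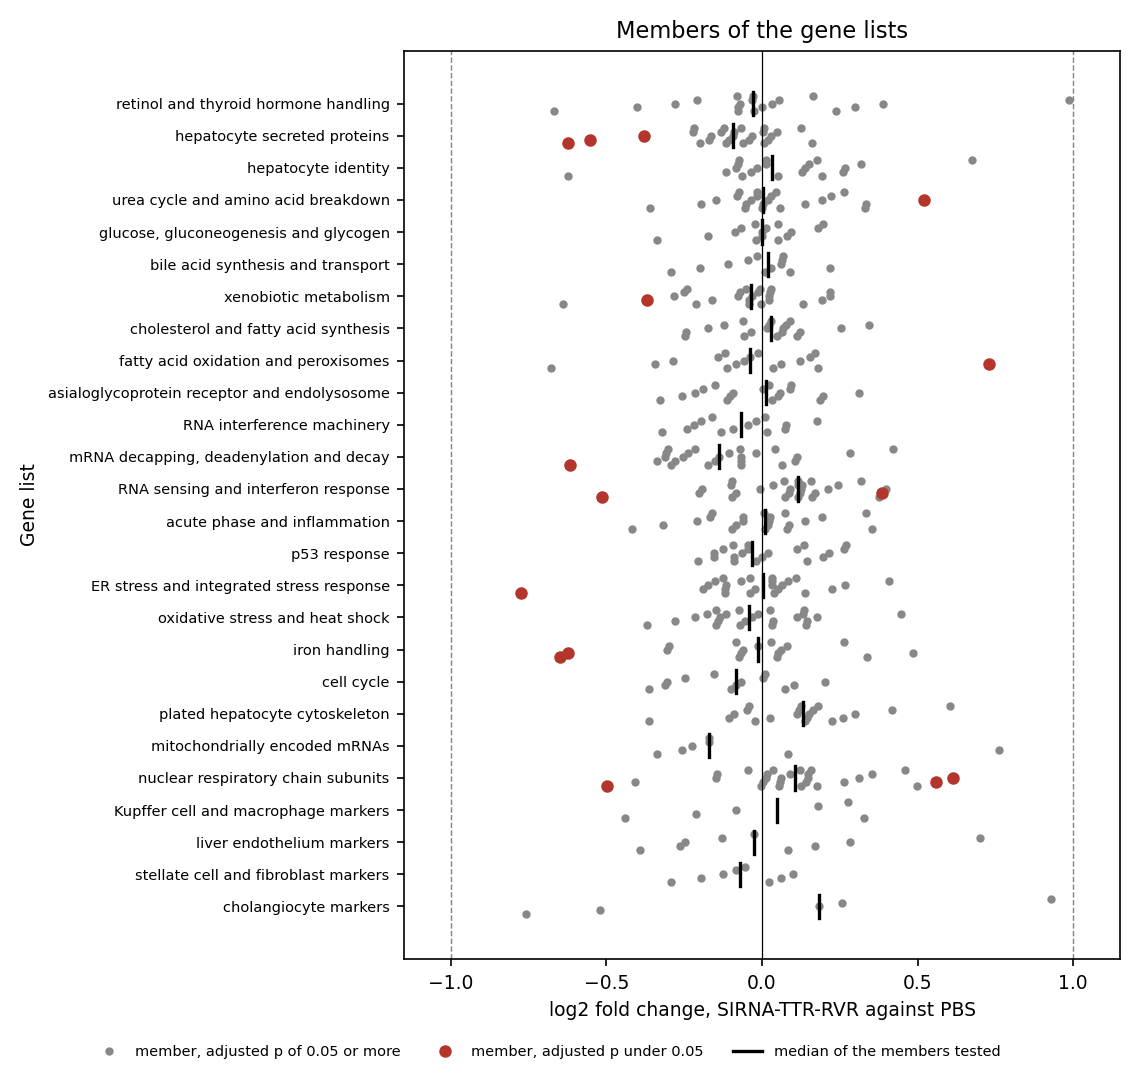
Log2 fold change of SIRNA-TTR-RVR against PBS (horizontal axis) for the tested members of each gene list (vertical axis); grey points did not pass an adjusted p of 0.05, red points did, black bars are list medians and dashed lines mark 2-fold. All list members lie within 2-fold by their estimate, and red points appear in 9 lists.

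The authors' deposited table of the same comparison listed 201 genes at an adjusted p under 0.05, 70 higher and 131 lower, out of 5463 with an adjusted value. Of the 88 genes called here 62 were in that list, which is 70.5% of the 88 and 30.8% of the 201, all in the same direction. Of the other 26, 23 had no adjusted p in the authors' deposited table, so 62 of the 65 with a value were in both. The authors' deposited table gave −0.06 for Ttr, −0.49 for Trf, 0.37 for Atp5g3 and 0.28 for Neat1 on the log2 scale. Its largest size of log2 fold change among called genes was 0.548, against 2.81 in the fit used here. The gene at 2.81 in size, Gm12563, was at −0.15 in the authors' deposited table and had no adjusted p there. Neat1, called in both, was at 0.28 there and at 1.91 here. The estimates may be scaled differently, which was not tested, so their sizes cannot be compared. Both analyses use the same libraries and are not independent.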

How the data were processed

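Total RNA of plated mouse hepatocytes was sequenced in 18 libraries, 6 groups of 3. The files deposited by the authors hold raw read counts for 37991 genes per library, whole numbers that were neither normalized nor pooled. STAR, DESeq2 (no versions) and the build NCBIM37 are named in the submitters' processing notes; neither the counting tool nor its strand setting is stated there or in the labels. The authors' deposited table of this comparison gives a mean signal per gene, a log2 fold change, its standard error and Wald score, and p-values. It was used only for the counts and values credited to it, and 4 such tables of other comparisons were not used. Symbols and types came from the GENCODE annotation of NCBIM37 for 37205 gene identifiers and from the deposited table for 49 more.

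Libraries were grouped by title. The members, gene lists, comparisons and naming rule were chosen with earlier results of these data known. Genes were kept by filterByExpr by group (11153 passed). An edgeR 4.0.16 quasi-likelihood model took all 18 libraries (R 4.3.3, TMM scaling, group as the only term, 12 residual degrees of freedom), in the older form of that fit. Benjamini-Hochberg adjustment ran over all genes in each of 4 comparisons, with 0.05 as the threshold. Standard errors came from F and the log2 fold change, and 95% intervals from the t quantile. CPM used TMM-scaled totals, with a prior count of 2 in logarithms. Values after ± are standard errors beside log2 fold changes and SD elsewhere. A Ttr permutation test was exact and two-sided. Intervals and tests cover these libraries only. The count scripts were tested on simulated data.

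Named genes were Ttr; the 12 highest and 12 lowest called genes without overlap, above a mean log2 CPM of 1; up to 4 called, or else 2, per list; all members of the 4 lists on uptake, RNA interference, RNA sensing and retinol and thyroid hormone; the 12 most abundant nuclear genes; the 5 genes of smallest p in each comparison without PBS; cell type markers as levels; and 6 genes shared with the deposited table. Some genes outside this rule were named after their values were seen: members of the classes of small nucleolar, ribosomal protein and urinary protein genes. Alternatives were other scalings and filters, DESeq2 1.42.0, a replicate block, mitochondrial ribosomal share as covariate, and libraries left out. Some genes that the rule names are not reported here. The default quasi-likelihood form of edgeR was added after seeing the data.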

Additional observations from a re-analysis of the deposited data

How the results depend on the processing

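The number of genes changed against PBS was the value that depended most on the processing. It was 88, and became 4089 with library totals alone (4067 higher, 22 lower, with the median of all genes at 0.33) and 585 with no filter on low counts. It was 230 with DESeq2 (87 higher, 143 lower, 51 of them among the 88) and 21 with the default quasi-likelihood fit. With only the groups compared it was 1 (Gm16869). It was 1 with mitochondrial ribosomal share as covariate and 0 without PBS replicates 1 and 2. Leaving out 1 library gave 0 to 1151: 0 without PBS replicate 1, 1 (Neat1) without PBS replicate 2, 1151 without PBS replicate 3, 0 without SIRNA-TTR-RVR replicate 1, 23 without replicate 2 and 6 without replicate 3. Against SIRNA the number was 21 with no filter, 14 with DESeq2 and 1 to 2 with 1 library left out (AB041803 beside Ttr without SIRNA replicate 3). Against SIRNA-SCRA-RVR it was 35 with no filter, and against the other 4 treated groups 45 with no filter and 6 with DESeq2 (among them C4b, C3, Ttr and SNORA12). The cause was not tested.

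Ttr against PBS turned to 0.22 with library totals alone (adjusted p = 0.199) and was at −0.28 ± 0.10 with the covariate (adjusted p = 0.863). It did not pass under any alternative run, where the adjusted p covers all genes tested and not Ttr alone. Ifit1 turned to 0.32 with library totals alone, Fkbp1a to 0.0211 with the covariate and Serpina1c to 0.0761 without PBS replicates 1 and 2. Genes with an interval within 2-fold of PBS stayed within 1.5 times of 10100 under all alternatives, from 8963 without PBS replicates 1 and 2 (77.8% of 11525 tested) to 12087 with no filter (60.2% of 20065 tested, against 90.6%). Of 40 named genes that passed, 40 passed without PBS replicate 3, 16 with DESeq2 and 0 without PBS replicate 1.

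Same-numbered libraries of PBS and SIRNA-TTR-RVR did not deviate together (correlations −0.013, −0.0289 and −0.0354), so no pairing by number was seen between these groups. Deviations from means of 3 libraries cannot exclude a shared culture or batch. The fit with a replicate block called 47 genes against PBS, 46 of them among the 88. Depth limits the genes with a mean log2 CPM under 3, of which 63.9% had an interval within 2-fold.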

Other observations

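Genes that differed from PBS had shorter annotated exon sequence when they rose than when they fell: the median exon length was 2181 bases for 39 genes that rose, 3177 bases for 48 of the 49 that fell and 3634 bases over the genes tested. The median log2 CPM was 5.63, 6.36 and 4.63 in the same order. Of the genes that rose, 32 (82.05%) were protein-coding and 4 (10.26%) were small nucleolar RNAs. Of those that fell, 41 (83.67%) were protein-coding and 6 (12.24%) were pseudogenes. All genes tested were 95.62% protein-coding, 0.439% small nucleolar RNAs and 1.775% pseudogenes. These are descriptions of genes chosen by the comparison, with no test.

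Away from PBS, genes with a small p besides Ttr against the other 4 treated groups included SNORA12 (0.52 ± 0.10), Scarna2, a small Cajal body RNA (0.58 ± 0.13, adjusted p = 0.66) and the histone gene Hist1h4h (0.83 ± 0.20). These did not pass the adjusted threshold in edgeR.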
